A study of Mus musculus with 9 samples.

Results

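The genes of oxidative phosphorylation were compared between Foxd2 mutant and control mK4 cells. Members were the rows of the deposited raw count table whose symbols name the subunits of complexes I to V (the Nduf, Sdh, Uqcr, Cox and Atp5 families) or the protein genes of mitochondrial DNA, with pseudogene symbols left out. The rule reads symbols and no measured value, but it was set with earlier results of these data known. This gave 97 of 45808 gene rows, of which 84 are encoded in the nucleus and 13 in the mitochondrial genome. mK4 is a mouse cell line made from embryonic kidney mesenchyme, cultured here with 10% serum. In clone F7 (4 libraries), both copies of Foxd2, which encodes a forkhead transcription factor, carry a frameshift made with CRISPR-Cas9. The control cells (5 libraries) went through the same Cas9 procedure with a guide that has no target, and their Foxd2 is wild type. All F7 libraries come from a single clone, so genotype and clone cannot be told apart. The labels name no separate cultures, so the p-values measure only how far these libraries spread, which may be technical.

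Oxidative phosphorylation makes ATP at the inner mitochondrial membrane. Complexes I and II feed electrons from NADH and succinate into the membrane, complexes III and IV pass them on to oxygen, and complexes I, III and IV pump protons whose return flow drives complex V, the ATP synthase. Every complex but II is built from subunits of both genomes, so transcripts made in the nucleus and in the mitochondrion have to meet in the same machine. Mitochondrial DNA is copied into long RNAs that are cut into shorter messages. The developing kidney tubule later comes to depend on this pathway more than the mesenchyme from which it forms.

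The F7 libraries held 6041556 to 14024859 counts and the control libraries 10526591 to 16032175. Of the members, 90 were tested by edgeR, 77 nuclear and all 13 mitochondrial, among 14730 tested genes. F7 replicates 3 and 4 had the lowest totals, and their column headers name the line mk3 where the sample titles name mK4. Foxd2 RNA averaged 18.2 ± 3.78 CPM (reads relative to the scaled library total; SD, n = 4) in F7 cells and 3.72 ± 0.537 CPM (SD, n = 5) in control cells, a log2 fold change of 2.30 (SE 0.16, adjusted p = 1.93e-07 by edgeR). Reads counted per gene do not show a frameshift. Of the kidney mesenchyme markers, Pax2 averaged 49.02 ± 2.37 CPM in F7 cells and 152 ± 10.05 CPM in control cells, whereas Wt1 had no read in any library. Pax2, Pax8, Wnt4, Cdh6, Emx2 and Sall1 were called lower in F7 cells, and Eya1, Lhx1 and Hoxa11 were not called. The 50 nearest tested genes had median log2 fold changes of -0.49 around Pax2, -0.55 around Emx2 and -0.31 around Sall1. Around Pax8, Wnt4 and Cdh6 the medians were 0.03, -0.004 and 0.14. Muscle and germ cell markers (Ckm, Myh1, Actn2, Ddx4 and Dazl) stood at 0 or at most 0.17 CPM in each F7 library. Markers of other cell types were not all absent. Gata3 (ureteric bud) averaged 27.5 CPM in F7 cells and 31.1 CPM in control cells, and Cd68 (leukocytes) 2.58 and 2.36 CPM. Cdh5 (endothelium) had 3, 2, 1 and 2 reads in F7 replicates 1 to 4 and 0 in each control, and Pecam1 averaged 0.136 and 0.244 CPM. Ret, Wnt9b, Kdr and Ptprc had 0 reads in each F7 library.

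Some nuclear genes of the pathway rose by small amounts in F7 cells, and no mitochondrial gene was called either way. Of the 77 nuclear members tested, 20 were higher and 1 lower in F7 cells at an edgeR adjusted p under 0.05, which is 26% and 1.3% of them. Over all tested genes 17.4% were higher and 17.9% lower. The median log2 fold change was 0.16 over the nuclear members and -0.01 over all tested genes, and 68 of the 77 nuclear values were above 0. Tested genes of at most 1066.5 bases, a class that holds 51 of the nuclear members, had a median of 0.19. In 13 of the 77 tested nuclear members every F7 library exceeded every control library, a share near the 13.9% of all tested genes. In 0 of the 77 every F7 library lay below every control library, against 13.7% of all tested genes. None of the 13 mitochondrial members was called by edgeR, DESeq2 or limma voom, and 0 had an unadjusted edgeR p under 0.05. Their median was 0.14, with 10 values above 0 and 3 below. A difference between the genomes was not tested.

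**Figure D1:**
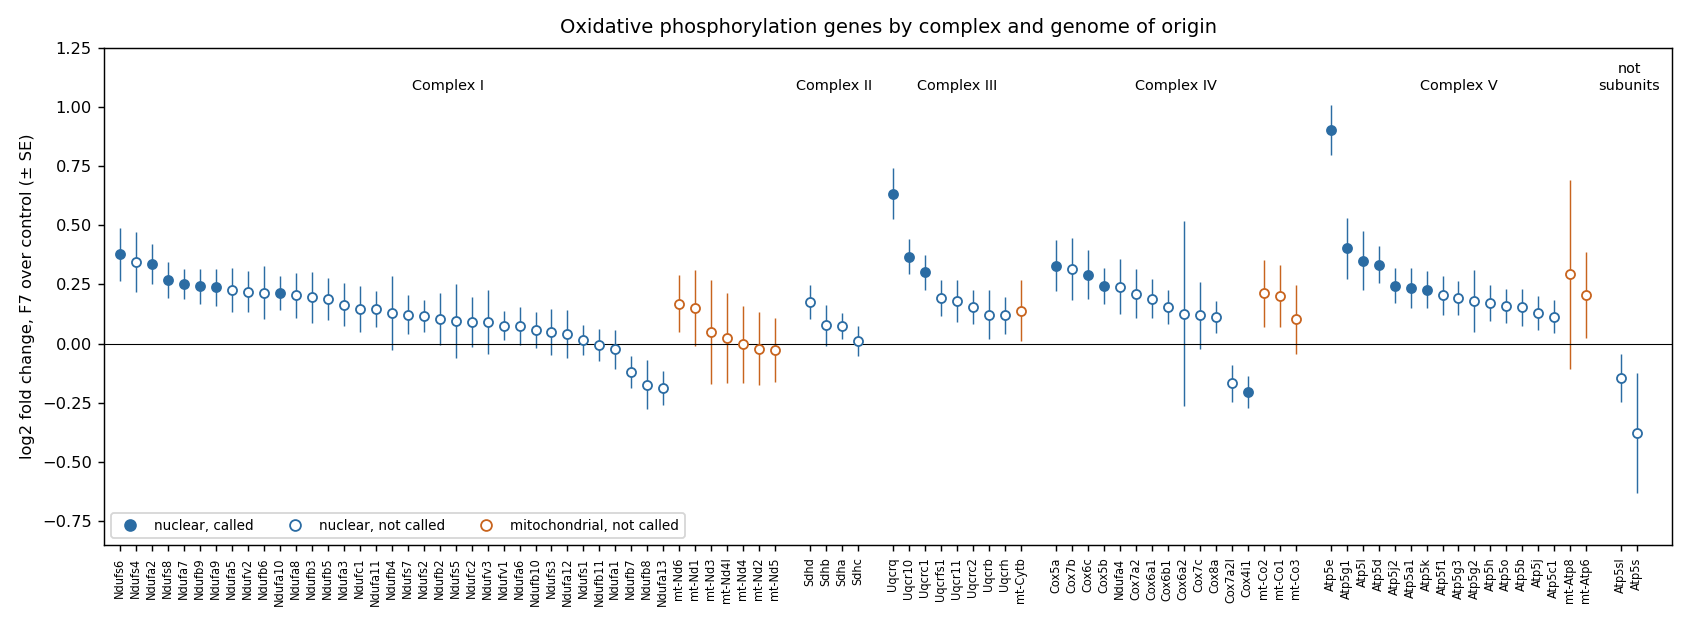
Log2 fold change, F7 over control, of the 90 tested members (points) with the SE of the edgeR fit (lines), ordered within complex and genome of origin; filled points were called at an adjusted p under 0.05. Ndufa4 stands with complex IV. Most nuclear points lie above 0, from -0.38 for Atp5s to 0.90 for Atp5e, and all mitochondrial points are open.

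The number of called members depended on single libraries. The 20 nuclear calls upward became 40 without control replicate 3, 9 without control replicate 1, 9 without control replicate 2 and 11 without control replicate 4. They became 7 without F7 replicate 1 and 12 without F7 replicate 4. Of the 21 calls, 7 held whichever 1 of the 9 libraries was left out (Ndufa2, Ndufa7, Uqcrc1, Uqcrq, Uqcr10, Atp5d and Atp5e), and the other 14 were lost without at least 1 library. With only F7 replicates 1 and 2, 9 nuclear members were higher and 1 lower, and with only F7 replicates 3 and 4, 3 were higher and 0 lower. The sign was steadier than the count: 65 to 70 of the 77 nuclear members were above 0 in each of these fits.

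Complex I, the NADH dehydrogenase, has a peripheral arm in the matrix that carries the electrons and a membrane arm that pumps protons. Of its 35 nuclear genes under the symbol rule, 7 rose in F7 cells and 0 fell, with a median log2 fold change of 0.13. The share called higher was 20%, near the 17.4% of all tested genes. The count was 2 without F7 replicate 1, 3 without control replicate 1 or 4, 4 (with 1 gene lower) without control replicate 2 and 13 without control replicate 3. Another 5 had an unadjusted p under 0.05 without passing the adjusted threshold, so 12 did in all. By position, 4 of the 9 accessory genes of the peripheral arm rose (44.4%, median 0.24) and 1 of its 7 core genes (14.3%, median 0.12). In the membrane arm 2 of the 19 accessory genes rose (10.5%, median 0.13).

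Ndufs6, an accessory subunit that holds zinc, showed the highest change of the complex. It measured 18.03, 15.7, 13.6 and 14.2 CPM in F7 replicates 1 to 4 and 10.8, 11.9, 14, 11.1 and 12.2 CPM in control replicates 1 to 5. F7 replicate 3 lay below control replicate 3, so the groups overlapped. The log2 fold change was 0.38 (SE 0.11, adjusted p = 0.02 by edgeR), and the call was lost without F7 replicate 1 or 2, or control replicate 1 or 4. Ndufa2 measured 46.8, 45.2, 47.97 and 47.01 CPM in F7 replicates 1 to 4 and 33.3, 34.01, 43.98, 35.4 and 38.6 CPM in control replicates 1 to 5. Here all F7 libraries stood above all controls, with control replicate 3 the nearest (log2 fold change 0.33, SE 0.08, adjusted p = 0.00814 by edgeR).

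Ndufa7 varied little among its F7 libraries, at 61.7, 62.6, 63.2 and 63.04 CPM in F7 replicates 1 to 4, against 50.98, 54.6, 57.6, 48.9 and 50.5 CPM in control replicates 1 to 5. The groups did not overlap, and the log2 fold change was 0.25 (SE 0.06, adjusted p = 0.00769 by edgeR). Ndufs8, an iron-sulfur subunit and the called core gene of the complex, averaged 43.5 ± 3.81 CPM in F7 cells and 36.2 ± 2.14 CPM in control cells (log2 fold change 0.27, SE 0.08, adjusted p = 0.0155 by edgeR). The smallest called changes were those of Ndufa9, which sits where the arms join, and Ndufa10, an accessory subunit of the membrane arm.

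Ndufa9 measured 60.02, 57.4, 56.7 and 56.9 CPM in F7 replicates 1 to 4 and 46.8, 44.4, 56.5, 45.1 and 52.5 CPM in control replicates 1 to 5 (log2 fold change 0.24, SE 0.08, adjusted p = 0.0304 by edgeR). Ndufa10 measured 58.3, 60.2, 57.03 and 58.6 CPM in F7 replicates 1 to 4 and 52.2, 45.5, 52.9, 45.8 and 56.01 CPM in control replicates 1 to 5 (log2 fold change 0.21, SE 0.07, adjusted p = 0.0356 by edgeR). In both genes the groups stood apart by less than 2 CPM, and 9 of 22 alternative settings ended the call of Ndufa9 and 11 that of Ndufa10. Ndufb9, the other called gene of the membrane arm, averaged 85.4 ± 3.54 CPM in F7 cells and 72.2 ± 7.34 CPM in control cells (log2 fold change 0.24, SE 0.07, adjusted p = 0.0231 by edgeR). The other core genes of the peripheral arm, among them the flavin-binding Ndufv1 and the large iron-sulfur subunit Ndufs1, had log2 fold changes of 0.02 for Ndufs1 to 0.22 for Ndufv2 and were not called.

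Complex II, succinate dehydrogenase, has all its subunits encoded in the nucleus and is also an enzyme of the citric acid cycle. None of its 4 genes was called by the main edgeR fit, DESeq2 or limma voom, and 1, Sdhd, had an unadjusted p under 0.05. By edgeR 1 was called higher without control replicate 3, 1 without control replicate 5 and 2, Sdhb and Sdhd, without both. These were the controls with the highest means over the nuclear members. After the correction for transcript length described below, 1, Sdha, was called higher. The flavoprotein Sdha had a log2 fold change of 0.07, the iron-sulfur protein Sdhb 0.08, and the membrane anchors Sdhc 0.01 and Sdhd 0.17. All were above 0, with an SE of 0.06 to 0.09. Their median of 0.08 was the lowest of the nuclear parts of the 5 complexes.

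Complex III, the cytochrome bc1 complex, takes electrons from ubiquinol to cytochrome c. Of its 8 nuclear genes under the symbol rule 3 rose and 0 fell in F7 cells, all 8 were above 0 and the median log2 fold change was 0.19. The share called higher was 37.5%, against 17.4% of all tested genes. The count was 6 without control replicate 3 and 3 without any other single library. The 3 were Uqcrq and Uqcr10, small subunits that span the membrane, and Uqcrc1, the first of the large core proteins on the matrix side. Uqcrq (mm10 chromosome 11, 53427922 to 53430831, minus strand) measured 88.5, 74.1, 63.6 and 69.9 CPM in F7 replicates 1 to 4 and 41.5, 42.8, 56.6, 47.7 and 51.7 CPM in control replicates 1 to 5. No F7 library was as low as the highest control. Its log2 fold change of 0.63 (1.55-fold, SE 0.11, adjusted p = 0.000678 by edgeR) was called in all 22 alternative settings.

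Uqcr10 (mm10 chromosome 11, 4701973 to 4704342, minus strand) measured 43.95, 40.3, 43.8 and 45.9 CPM in F7 replicates 1 to 4 and 32.8, 32.5, 38.3, 32.6 and 32.04 CPM in control replicates 1 to 5. The controls other than replicate 3 lay within 1 CPM of each other, and all F7 libraries stood above all controls. The log2 fold change was 0.37 (SE 0.07, adjusted p = 0.00211 by edgeR). Uqcrc1 measured 122, 124, 115 and 108 CPM in F7 replicates 1 to 4 and 88.96, 85.5, 107, 96.02 and 98.9 CPM in control replicates 1 to 5 (log2 fold change 0.30, SE 0.07, adjusted p = 0.00673 by edgeR). F7 replicate 4 was the lowest of its group and stood just above control replicate 3. The other nuclear genes of the complex under the symbol rule lay between 0.12 and 0.19 on the log2 scale and were not called. They include the Rieske iron-sulfur protein Uqcrfs1 and the second core protein Uqcrc2.

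Complex IV, cytochrome c oxidase, reduces oxygen at the end of the chain and is the complex with calls in both directions. Of its 12 tested nuclear genes 3 rose (Cox5a, Cox5b and Cox6c) and 1 fell (Cox4i1), with a median log2 fold change of 0.17. The shares were 25% higher and 8.33% lower, against 17.4% and 17.9% of all tested genes. None rose by edgeR without F7 replicate 1 or control replicate 2 or 4, 1 did without F7 replicate 3 or 4 or control replicate 1, and 8 did without control replicate 3. These are accessory subunits around a core that mitochondrial DNA encodes. Cox5a measured 41.1, 40.6, 36.7 and 39.8 CPM in F7 replicates 1 to 4 and 26.5, 26.3, 38.2, 31.9 and 35.4 CPM in control replicates 1 to 5. F7 replicate 3 lay below control replicate 3, and the 4 other controls lay below all F7 libraries (log2 fold change 0.33, SE 0.11, adjusted p = 0.0316 by edgeR).

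Cox6c measured 103, 92.8, 97.4 and 117 CPM in F7 replicates 1 to 4 and 70.97, 73.9, 102, 88.7 and 82.4 CPM in control replicates 1 to 5, with control replicate 3 again among the F7 values (log2 fold change 0.29, SE 0.10, adjusted p = 0.0446 by edgeR). Cox5b, the zinc-binding subunit on the matrix side, measured 35.2, 34.5, 37.1 and 34.2 CPM in F7 replicates 1 to 4 and 29.9, 27.9, 33.8, 28.6 and 28.4 CPM in control replicates 1 to 5. The groups stood apart by less than 1 CPM (log2 fold change 0.24, SE 0.08, adjusted p = 0.0232 by edgeR). Between 9 and 11 of the 22 alternative settings ended each of these 3 calls.

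Cox4i1, the usual form of subunit 4, was the single member called lower. This gene (mm10 chromosome 8, 120668222 to 120674207, plus strand) measured 218, 215, 226 and 241 CPM in F7 replicates 1 to 4 and 247, 236, 279.8, 266 and 267 CPM in control replicates 1 to 5. F7 replicate 4 overlapped the lowest control, replicate 2, and the other F7 libraries lay below every control. The log2 fold change was -0.21 (SE 0.07, adjusted p = 0.0295 by edgeR). The call was lost without control replicate 4 and without F7 replicate 1, 2 or 3, and with F7 replicates 3 and 4 alone the log2 fold change was -0.14 (edgeR adjusted p = 0.295). Cox7a2l, which helps join complexes III and IV into supercomplexes, was the other gene of this complex below 0. Its levels were 60.02, 57.4, 68.9 and 65.03 CPM in F7 replicates 1 to 4 and 67.1, 63.6, 76.4, 76.8 and 67.9 CPM in control replicates 1 to 5, so the groups overlapped (log2 fold change -0.17, SE 0.08, adjusted p = 0.11 by edgeR).

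The rule also takes in subunit forms that are known from particular tissues, and most of these were hardly expressed. Too low to be tested were 6 such genes of complex IV (Cox4i2, Cox6b2, Cox7a1, Cox7b2, Cox8b and Cox8c) and Ndufa4l2, each with at most 57 reads over all libraries. Cox4i2, known from lung, had 9 reads in F7 cells and 18 in control cells. Cox7a1, a heart and muscle form, had 27 reads in F7 cells and 30 in control cells. Cox6b2 and Cox8b, known from testis and from heart and muscle, had 2 and 4 reads in F7 cells and 2 and 9 in control cells. Cox7b2 had 2 reads in F7 cells and 3 in control cells. Cox8c had 0 reads in both groups, and a count of 0 says only that it was not detectable at this depth.

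Cox6a2, the heart and muscle form of subunit 6a, was the tested gene among them. It measured 2.04, 2.22, 1.01 and 0.916 CPM in F7 replicates 1 to 4 and 1.02, 0.739, 1.99, 1.298 and 2.69 CPM in control replicates 1 to 5. The values of Cox6a2 overlapped throughout (log2 fold change 0.13, SE 0.39, adjusted p = 0.823 by edgeR).

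The usual forms Cox6a1, Cox6b1, Cox7a2 and Cox8a were not called. Cox6a1 stood at 106, 99.5, 101 and 98.9 CPM in F7 replicates 1 to 4 and 78.6, 81.1, 106, 85.4 and 94.7 CPM in control replicates 1 to 5 (log2 fold change 0.19, SE 0.08, adjusted p = 0.09 by edgeR). For Cox6b1 the levels were 103, 94.6, 98.8 and 103 CPM in F7 replicates 1 to 4 and 82.5, 87.02, 99.1, 81.6 and 97.2 CPM in control replicates 1 to 5 (log2 fold change 0.15, SE 0.07, adjusted p = 0.106 by edgeR). In both genes control replicate 3 lay among the F7 libraries and the other controls, apart from replicate 5 of Cox6b1, lay below all of them. Cox7a2 had 84.6, 78.96, 96.3 and 105 CPM in F7 replicates 1 to 4 and 67.5, 80.3, 94.8, 73.1 and 76.4 CPM in control replicates 1 to 5 (log2 fold change 0.21, SE 0.10, adjusted p = 0.127 by edgeR). Cox8a had 89.1, 87.2, 96.8 and 92.5 CPM in F7 replicates 1 to 4 and 80.3, 82.1, 97.1, 81.01 and 81.7 CPM in control replicates 1 to 5 (log2 fold change 0.11, SE 0.07, adjusted p = 0.217 by edgeR). In Cox8a control replicate 3 was the highest library of all, and in Cox7a2 the groups overlapped in control replicates 2 and 3. Each of these 4 was called once control replicate 3 was left out.

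Ndufa4, once assigned to complex I and now to complex IV, measured 81.3, 68.4, 71.6 and 82.4 CPM in F7 replicates 1 to 4 and 55.01, 55.4, 83.9, 64.9 and 62.8 CPM in control replicates 1 to 5. Control replicate 3 exceeded every F7 library, and the other controls lay below every F7 library. The log2 fold change was 0.24 (SE 0.12, adjusted p = 0.128 by edgeR). Its paralog Ndufa4l2, known to be induced by low oxygen, had 18 reads in F7 cells and 19 in control cells.

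Complex V, the ATP synthase, has a catalytic F1 head with a central stalk, a ring of c subunits that turns in the membrane, and a peripheral stalk that holds the head still. In F7 cells 7 of its 15 nuclear genes under the symbol rule rose and 0 fell, all 15 were above 0, and the median log2 fold change was 0.20. The share called higher was 46.7%, against 17.4% of all tested genes. This count rested on single libraries: it was 2 without F7 replicate 1 or control replicate 1 or 2, 3 without F7 replicate 2 or 4, 4 without F7 replicate 3 and 11 without control replicate 3. With F7 replicates 3 and 4 alone, 1 of the 15 was called higher. The called genes included 3 of the 5 of the F1 head and central stalk (Atp5a1, Atp5d and Atp5e) and 1 of the 3 c subunit genes (Atp5g1). The others were the 3 small subunits of the membrane part that the symbol rule takes in (Atp5j2, Atp5k and Atp5l). Usmg5, a subunit gene that the rule leaves out, stood below 0 at -0.39 and was not called. None of the 4 peripheral stalk genes (Atp5f1, Atp5h, Atp5j and Atp5o) was called in the main edgeR fit, although 3 had an unadjusted p under 0.05. Their values lay between 0.13 and 0.20. Without control replicates 3 and 5, edgeR called Atp5f1, Atp5j and Atp5o higher (adjusted p = 0.0157, 0.0433 and 0.00673) but not Atp5h. Those controls had the highest means over the nuclear members, so leaving them out favours calls upward.

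Atp5e, the small epsilon subunit of the central stalk, had the largest change of all members. This gene (mm10 chromosome 2, 174461072 to 174464105, minus strand) measured 64.1, 66.6, 75.5 and 61.5 CPM in F7 replicates 1 to 4 and 29.6, 32.9, 44.9, 36.7 and 34.99 CPM in control replicates 1 to 5. The lowest F7 library was well above the highest control. The log2 fold change was 0.90 (1.87-fold, SE 0.11, adjusted p = 2.92e-05 by edgeR), and the gene was called in all 22 alternative settings, with log2 fold changes between 0.73 and 1.02. Atp5d, the delta subunit next to it in the central stalk, measured 112, 109, 109 and 103 CPM in F7 replicates 1 to 4 and 77.7, 77.5, 98.8, 82.03 and 94.6 CPM in control replicates 1 to 5 (log2 fold change 0.33, SE 0.08, adjusted p = 0.00574 by edgeR). The groups did not overlap.

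Atp5a1, the alpha subunit of the head, measured 442, 446, 423 and 421 CPM in F7 replicates 1 to 4 and 321, 329, 421, 369 and 400.4 CPM in control replicates 1 to 5. F7 replicate 4 and control replicate 3 were nearly level, and the log2 fold change was 0.24 (SE 0.08, adjusted p = 0.0422 by edgeR). The catalytic beta subunit Atp5b, the most abundant nuclear member in CPM, averaged 698 ± 22.5 CPM in F7 cells and 628 ± 59.9 CPM in control cells and was not called (log2 fold change 0.15, SE 0.08, adjusted p = 0.141 by edgeR). Atp5k, the e subunit of the membrane part, measured 25.8, 24.7, 22.3 and 26.1 CPM in F7 replicates 1 to 4 and 21.2, 21.9, 22.7, 20.3 and 19.8 CPM in control replicates 1 to 5. F7 replicate 3 lay below control replicate 3, and the call (log2 fold change 0.23, SE 0.08, adjusted p = 0.0389 by edgeR) was lost in 14 of the 22 alternative settings.

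The c subunit is encoded by 3 genes whose mature proteins are the same. Atp5g3 supplied most of the RNA, 80.5% to 83.4% of their summed CPM in the F7 libraries and 81.5% to 84.2% in the controls. It measured 123, 127, 125 and 119 CPM in F7 replicates 1 to 4 and 95.3, 103, 124, 106 and 113 CPM in control replicates 1 to 5 (log2 fold change 0.19, SE 0.07, adjusted p = 0.0541 by edgeR). Atp5g1 measured 16.4, 18.1, 16.1 and 11.1 CPM in F7 replicates 1 to 4 and 11.4, 10.3, 12.4, 12.2 and 12.95 CPM in control replicates 1 to 5. In Atp5g1 F7 replicate 4 was below 4 of the 5 controls whereas the other F7 libraries were above all of them (log2 fold change 0.40, SE 0.13, adjusted p = 0.0275 by edgeR). Atp5g2 measured 9.71, 10.4, 14.1 and 12.5 CPM in F7 replicates 1 to 4 and 10.2, 9.02, 12.01, 9.64 and 9.67 CPM in control replicates 1 to 5, and the groups overlapped (log2 fold change 0.18, SE 0.13, adjusted p = 0.301 by edgeR). The rows Atp5s and Atp5sl, taken in by name, encode no structural subunit and stood below 0, at -0.38 and -0.15, and neither was called.

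**Figure D2:**
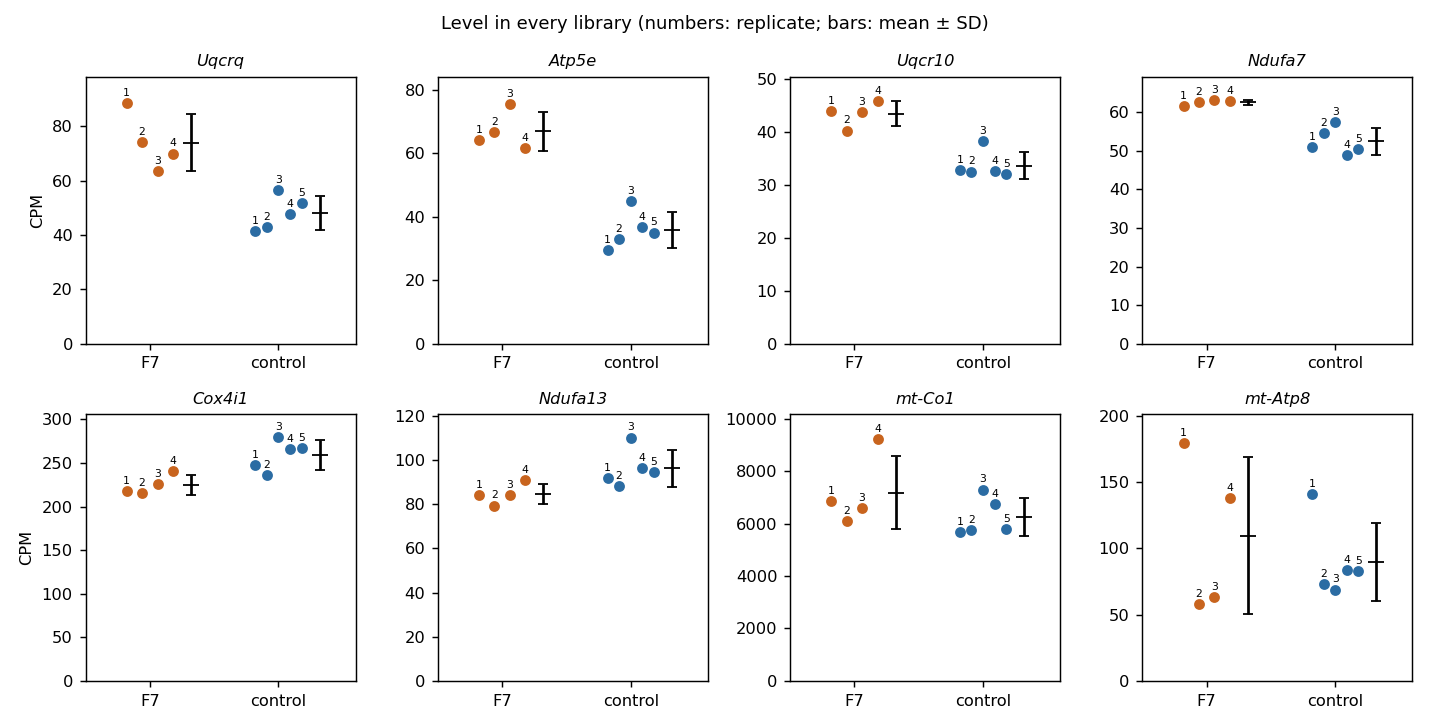
CPM of 8 members in each F7 library (left in each panel) and each control library (right), numbered by replicate, with mean ± SD as bars beside the points. Uqcrq, Atp5e, Uqcr10 and Ndufa7 show no overlap between the groups, Cox4i1 and Ndufa13 are mostly lower in F7 cells, and for mt-Co1 and mt-Atp8 the F7 libraries spread across the control range, with mt-Atp8 at 179, 57.7, 63.4 and 138 CPM in F7 cells.

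The stretches before the start sites of the most stable calls are shown, since these genes were called higher together. They were taken from RefSeq (GRCm38.p6) for the genes called in at least 21 of the 22 alternative settings that have an entry, as the 150 bases upstream, 5′ to 3′ on the strand of the gene. Capitals mark matches to the letters searched.
Uqcr10 (chr11:4704345-4704494, minus strand): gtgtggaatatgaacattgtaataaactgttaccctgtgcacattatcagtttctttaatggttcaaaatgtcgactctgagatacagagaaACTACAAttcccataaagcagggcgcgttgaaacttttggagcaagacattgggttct
Atp5d (chr10:80142125-80142274, plus strand): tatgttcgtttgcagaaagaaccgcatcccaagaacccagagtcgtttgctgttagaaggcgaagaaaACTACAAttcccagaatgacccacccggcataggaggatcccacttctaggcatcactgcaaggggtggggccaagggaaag
Atp5e (chr2:174464102-174464251, minus strand): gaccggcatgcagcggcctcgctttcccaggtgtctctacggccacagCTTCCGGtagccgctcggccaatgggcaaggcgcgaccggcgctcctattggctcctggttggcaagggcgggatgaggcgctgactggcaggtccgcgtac
Uqcrc1 (chr9:108936498-108936647, plus strand): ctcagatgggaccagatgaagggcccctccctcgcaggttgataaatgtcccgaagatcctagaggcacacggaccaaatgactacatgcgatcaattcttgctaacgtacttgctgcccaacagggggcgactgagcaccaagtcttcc
The capitals in Uqcr10 and Atp5d are ACTACAA, the core of the site of ZNF143, followed in both by ttccca. In Atp5e they are the reverse strand of CCGGAAG, a core of ETS factor sites such as those bound by GABP, and Uqcrc1 held none of the letters searched.

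Over the whole 250 bases upstream, 65 nuclear members had a RefSeq entry, each taken at the start nearest its annotated 5′ end. They were compared on both strands with 32851 entries of all genes, which were not reduced to a single entry per gene. The NRF1 core GCATGCG stood before 8 members (12.3%), against 3.02% of all entries. CCGGAAG stood before 11 (16.9%), against 6.91%, and ACTACAA before 7 (10.8%), against 2.81%. AAGATGG, the core of YY1 sites, stood before 0 members, against 4.49%. Any of the 4 was found before 24 members (36.9%), against 16% of all entries. GCATGCG overlaps its own reverse strand, and ACTACAA was added to the search after these sequences had been seen. Of the 15 genes called higher with an entry, 6 (40%) held any of the 4. A match is a run of letters and not a binding site.

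The mitochondrial members were the more abundant class, and their levels varied among the F7 libraries more than between the groups. All 13 lie on the circular mitochondrial DNA and encode the core of complexes I, III, IV and V. Together they made up 1.57% to 2.53% of all counts in the F7 libraries and 1.603% to 1.98% in the controls. The median coefficient of variation (SD over mean) among the 13 was 24.3% in F7 cells and 14.0% in control cells, and among the nuclear members it was 6.74% in F7 cells and 9.57% in control cells. F7 replicate 4 was the highest F7 library in 11 of the 13 and F7 replicate 2 the lowest in 11. The median log2 fold change of 0.14 was -0.00 without F7 replicate 4.

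Some neighbouring genes of mitochondrial DNA share bases, which matters for how reads are assigned. The overlaps of the 2 ATP synthase genes and of a pair of complex I genes are shown from GRCm38, plus strand, 5′ to 3′, with the shared bases in capitals and the bases on either side in lower case.
mt-Atp8 and mt-Atp6 (chrM:7907-7989): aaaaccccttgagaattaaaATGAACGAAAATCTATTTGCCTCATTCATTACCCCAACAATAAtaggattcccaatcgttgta
mt-Nd4l and mt-Nd4 (chrM:10147-10193): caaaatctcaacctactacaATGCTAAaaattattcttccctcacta
The first pair shares 43 bases, which is 21.1% of the length of mt-Atp8, and the second pair 7 bases. How the counting treated reads in shared bases is not given in the sources used here.

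For complex IV, mt-Co1, the catalytic subunit that holds the heme centres, measured 6844, 6085, 6578 and 9224 CPM in F7 replicates 1 to 4 and 5666, 5745, 7298, 6756 and 5799.8 CPM in control replicates 1 to 5. mt-Co2, which receives electrons from cytochrome c, measured 1918, 1550.5, 1792 and 2598 CPM in F7 replicates 1 to 4 and 1543, 1456, 2059, 1789.8 and 1629.6 CPM in control replicates 1 to 5. mt-Co3 measured 1879.6, 1463, 1551 and 2372 CPM in F7 replicates 1 to 4 and 1465, 1456, 1993, 1901 and 1646 CPM in control replicates 1 to 5. In all 3 genes F7 replicate 4 was the highest of the 9 libraries and the other F7 libraries lay among the controls. Their log2 fold changes were 0.20, 0.21 and 0.10, with edgeR adjusted p-values of 0.252, 0.261 and 0.607.

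For complex III, mt-Cytb measured 2208, 1970.2, 1869.6 and 2853 CPM in F7 replicates 1 to 4 and 1758, 1840.2, 2402, 2144 and 1955 CPM in control replicates 1 to 5 (log2 fold change 0.14, SE 0.13, adjusted p = 0.421 by edgeR). For complex V, mt-Atp6, the proton channel subunit, measured 1561, 969, 1106 and 1972 CPM in F7 replicates 1 to 4 and 1254, 1028, 1303, 1316 and 1178 CPM in control replicates 1 to 5 (log2 fold change 0.21, SE 0.18, adjusted p = 0.399 by edgeR). mt-Atp8 measured 179, 57.7, 63.4 and 138 CPM in F7 replicates 1 to 4 and 141, 72.8, 68.7, 83.6 and 82.7 CPM in control replicates 1 to 5 (log2 fold change 0.29, SE 0.40, adjusted p = 0.601 by edgeR). This short gene was the most scattered of the 13, with F7 replicates 1 and 4 and control replicate 1 far above the other libraries.

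The 7 complex I genes of mitochondrial DNA encode the core of the proton-pumping arm, and their median log2 fold change was 0.03. mt-Nd1 measured 1488, 1102, 904 and 1578 CPM in F7 replicates 1 to 4 and 1115, 873, 1236, 1271 and 1216 CPM in control replicates 1 to 5. mt-Nd2 measured 493, 348, 351 and 546 CPM in F7 replicates 1 to 4 and 559, 415, 453, 396 and 382 CPM in control replicates 1 to 5. In both genes F7 replicates 1 and 4 stood well above replicates 2 and 3. mt-Nd3 repeated this split, with 156, 83.2, 86.2 and 148 CPM in F7 replicates 1 to 4 and 134, 91.3, 133, 118 and 96.2 CPM in control replicates 1 to 5. mt-Nd4, in the middle of the arm, measured 1099.8, 833, 995 and 1626 CPM in F7 replicates 1 to 4 and 1281, 1115, 1212, 1111 and 985 CPM in control replicates 1 to 5.

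mt-Nd4l, which overlaps mt-Nd4, measured 212, 182, 233 and 359 CPM in F7 replicates 1 to 4 and 258, 245, 292, 218 and 196 CPM in control replicates 1 to 5. mt-Nd5, at the tip of the arm, measured 1167, 1003, 1276 and 1736 CPM in F7 replicates 1 to 4 and 1379, 1229.8, 1477, 1328 and 1179 CPM in control replicates 1 to 5. mt-Nd6, the 1 member on the other strand, measured 222, 169, 211 and 279 CPM in F7 replicates 1 to 4 and 222, 179.7, 199.5, 197 and 180.3 CPM in control replicates 1 to 5. In these 3 genes F7 replicate 4 was again the highest library and the rest of the F7 libraries fell in or below the control range. The log2 fold changes of the 7 genes ran from -0.03 for mt-Nd5 to 0.17 for mt-Nd6, with SE of 0.12 to 0.22 and edgeR adjusted p-values of 0.291 or more.

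**Figure D3:**
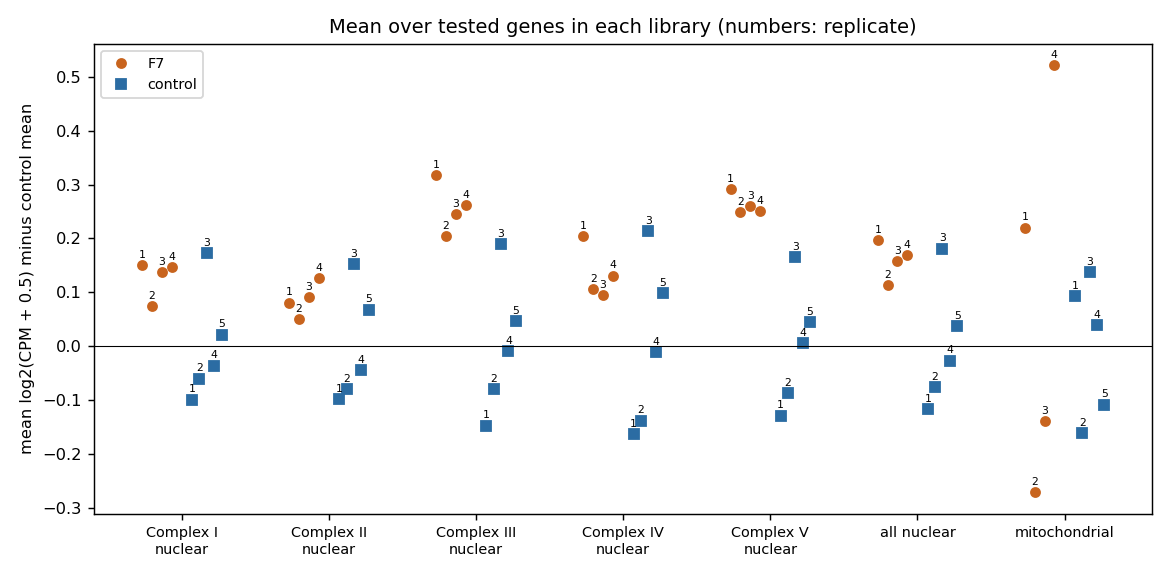
Mean over the tested genes of each set of log2(CPM + 0.5), minus the control mean, in each F7 library (left, circles) and each control library (right, squares), numbered by replicate. For all nuclear genes the F7 libraries lie at 0.20, 0.11, 0.16 and 0.17 and control replicate 3 at 0.18, among them; the mitochondrial means of F7 run from -0.27 to 0.52.

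Control replicate 3 stood apart from the other controls in the nuclear members. Averaged over the 77 tested genes as log2(CPM + 0.5) relative to the control mean, F7 replicates 1 to 4 stood at 0.20, 0.11, 0.16 and 0.17. Control replicates 1 to 5 stood at -0.12, -0.08, 0.18, -0.03 and 0.04. Control replicate 3 was thus within the F7 range, and it was the highest control in 64 of the 77 genes. The mean of the F7 libraries was above control replicate 3 in 29 genes, whereas it was above control replicate 1 in 71. Without control replicates 3 and 5, the controls with the highest of these means, 43 nuclear members were higher and 0 lower. Leaving out the highest controls raises the fold changes by itself, so this count gives no further evidence of a rise. No fit left out the lowest controls together. Complexes III and V were the sets in which all F7 libraries lay above control replicate 3.

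The mitochondrial means followed no such order. They stood at 0.22, -0.27, -0.14 and 0.52 in F7 replicates 1 to 4 and at 0.09, -0.16, 0.14, 0.04 and -0.11 in control replicates 1 to 5. F7 replicate 4 was the highest and F7 replicate 2 the lowest of all 9 libraries, and F7 replicate 2 was also the lowest F7 library in the nuclear mean. The share of mt-Co1 among the mitochondrial reads was 35.2% to 38.7% in F7 libraries and 33.8% to 36.5% in controls.

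Levels per transcript length differed more between members than between the groups. The median was 59.9 CPM per kb in F7 cells and 54.5 in control cells over the tested nuclear members. Over the mitochondrial members it was 830 in F7 cells and 828 in control cells. In complex I, control levels ran from 6.49 CPM per kb for Ndufb4 to 194 for Ndufa1. In complex III they ran only from 40.5 for Uqcrfs1 to 119 for Uqcrh, and in complex II from 43.9 for Sdhc to 62.3 for Sdhb. In complex V they ran from 4.43 CPM per kb for Atp5g1 to 328 for Atp5b. Among the tested genes of complex IV they ran from 2.28 for Cox6a2 to 344 for Cox4i1. Cox4i1, the gene called lower, thus led the nuclear members in control cells, and stood at 298 CPM per kb in F7 cells and 344 in control cells. Atp5b stood at 364 CPM per kb in F7 cells and 328 in control cells, so their order was the other way round in the mutant.

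Several members had values like those of their chromosomal neighbours. Chromosome 8 as a whole was lower in F7 cells, with a median log2 fold change of -0.35 over 731 tested genes and 60.7% of them called lower, against 17.9% of all tested genes. Cox4i1, Ndufa13 and Ndufb7 are its 3 members, at -0.21, -0.19 and -0.12. The nuclear members elsewhere counted 20 higher and 0 lower of 74. For each gene, the median of the 50 nearest tested genes was -0.49 around Ndufa13, -0.34 around Cox4i1 and -0.30 around Ndufb7.

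On chromosome 19, Ndufb8 (-0.17) lay among genes with a median of -0.48. Atp5e, the most changed member, lay on chromosome 2 among genes with a median of 0.65. Uqcrq and Uqcr10, both on chromosome 11, had neighbours at 0.11 and 0.13, far below their own values of 0.63 and 0.37. The 4 members with neighbours below -0.25 were the 3 of chromosome 8 and Ndufb8, and all 4 were below 0. The remaining 5 nuclear genes below 0 were Cox7a2l, Ndufa1, Ndufb11, Atp5s and Atp5sl. Over 76 nuclear members with a position, Spearman's rho between a member and its neighbours was 0.38, a description across genes of the same libraries. The part of chromosomal position in these values was not tested.

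**Figure D4:**
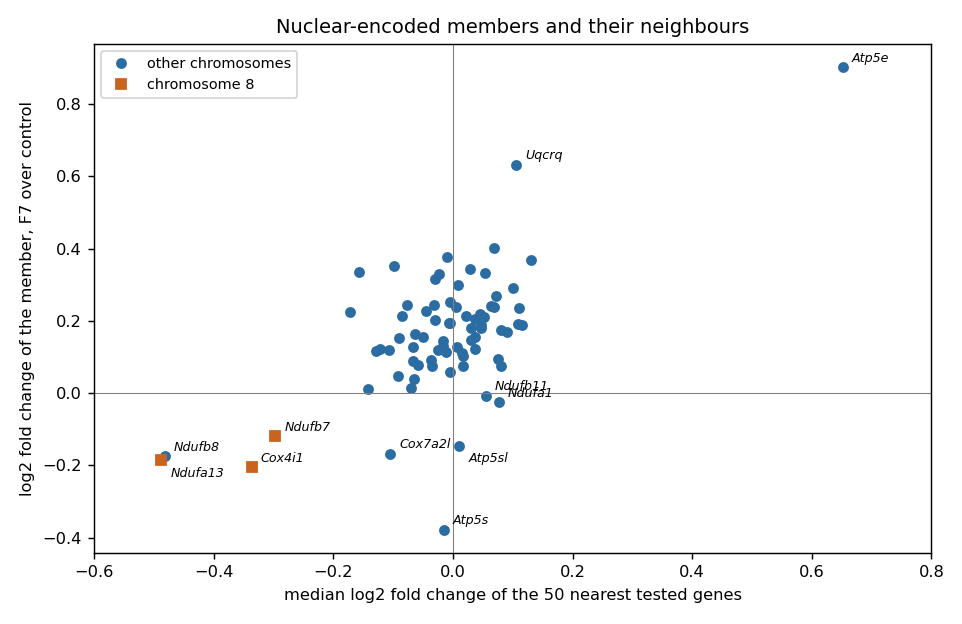
Log2 fold change of each nuclear member (y axis) against the median of the 50 nearest tested genes on its chromosome (x axis); squares mark chromosome 8. Cox4i1, Ndufa13, Ndufb7 and Ndufb8 lie at the lower left, Atp5e at 0.65 and 0.90 at the upper right, and most members lie above 0 with neighbours near 0.

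Most members are short, and short transcripts were higher in F7 cells generally. The median transcript length was 746 bases for the nuclear members and 2365 bases for all tested genes. The shortest of 5 classes of genes of equal size, up to 1066.5 bases, had a median log2 fold change of 0.19 and held 51 of the 76 nuclear members with a length. That is close to the nuclear members' own median of 0.16. Across 13833 genes, Spearman's rho of the log2 fold change on length was -0.24.

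With the length trend removed in each library, 14 nuclear members were higher and 5 lower, and their median was 0.07 with 54 of 77 above 0. Of the original 21 calls, 11 were kept. The 5 lower were Cox4i1, Ndufa13, Ndufb7, Ndufa1 and Cox7a2l, and over all called genes the share higher was 59.4% in place of 49.3%. Uqcrq and Atp5e were still called, at 0.47 and 0.73, whereas Uqcr10 was not, at 0.19 (edgeR adjusted p = 0.0616).

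**Figure D5:**
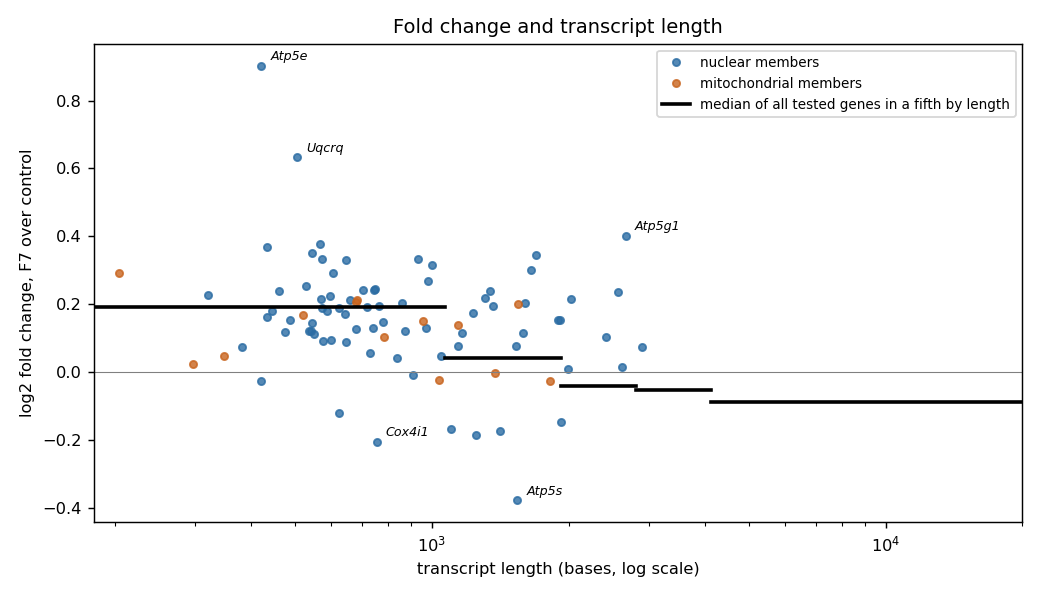
Log2 fold change of nuclear and mitochondrial members against transcript length in bases (log axis); black lines are medians of all tested genes in 5 length classes of equal size. The medians fall from 0.19 in the shortest class to -0.09 in the longest, and most members lie in the shortest class.

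Some members share exonic bases with another gene in the annotation, and whether the counting used strand is not given in the sources used here. This applies to 22 nuclear members, among them 7 of the 21 called. Among those 7 the overlaps were widest in Cox5a and Ndufb9. Cox5a shares 41.7% of its exonic bases with Gm26631 on the opposite strand, and Ndufb9 28.6% with Gm49356 on the same strand. Atp5l shares 24.4% and Ndufa2 11.5% of their bases, and Ndufa9, Ndufs6 and Atp5a1 less than 5%. Atp5l also has pseudogene rows of its own, of which Atp5l-ps1 held 477 reads in F7 cells and 672 in control cells.

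Assembly factors, which fit cofactors and subunits into the complexes, were mixed. Of 20 tested factors for complex IV, 5 rose and 1 fell in F7 cells, with a median log2 fold change of 0.03. The shares were 25% higher and 5% lower, against 17.4% and 17.9% of all tested genes. The 5 were Higd1a (0.61), Coa3 (0.56), the copper chaperone Cox17 (0.54), Taco1, which activates translation of mt-Co1 (0.47), and the heme farnesyltransferase Cox10 (0.37). Cox15, which makes heme a and lies near Ndufb8 on chromosome 19, fell (-0.33, with neighbours at -0.47). Cox17 averaged 16.02 ± 1.88 CPM in F7 cells and 11 ± 0.873 CPM in control cells (SE 0.10, adjusted p = 0.00165 by edgeR).

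For complex I, 2 of 13 assembly factors rose, Nubpl (0.87) and Ndufaf2 (0.31), with a median of 0.07. That is 15.4%, below the 17.4% of all tested genes called higher. The calls of Nubpl and Ndufaf2 were ended by 8 and 13 of the 22 alternative settings. None of the 4 factors for complex II, the 5 for complex III or the 3 for complex V was called by the main edgeR fit, DESeq2 or limma voom. Of these, 1, a factor for complex V, had an unadjusted p under 0.05. By edgeR 1 factor for complex V was called higher without control replicate 3. Without control replicates 3 and 5, 1 for complex III and 1 for complex V were. With F7 replicates 3 and 4 alone, 1 for complex III was called lower. The 5 respiratory genes outside the symbol rule had a median of 0.21, and 1 of them, Cyc1, the heme-bearing cytochrome c1 of complex III, rose (117 ± 8.38 CPM in F7 cells and 99.97 ± 10.6 CPM in control cells, log2 fold change 0.24, SE 0.08, adjusted p = 0.0374 by edgeR). The call of Cyc1 was ended by 8 of the 22 alternative settings, the replicate block and the loss of F7 replicate 1 or 2 or control replicate 1, 2 or 4 among them. Usmg5 was the 1 gene of these 5 below 0 and was not called (log2 fold change -0.39, SE 0.17, adjusted p = 0.0988 by edgeR). It lies on chromosome 19 among genes with a median of -0.51. Without F7 replicate 1, 0 of the 5 were called higher and 1 lower.

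Regulators known to drive nuclear genes of this pathway had log2 fold changes of either sign, and those called in the main edgeR fit fell. Of 10 tested regulators of mitochondrial biogenesis 3 fell and 0 rose, with a median of 0.01, and the share lower was 30%, against 17.9% of all tested genes. Ppargc1a, the coactivator PGC-1α, measured 11.97, 14.1, 16.9 and 17.2 CPM in F7 replicates 1 to 4 and 53.2, 62.3, 37.2, 45.2 and 41.5 CPM in control replicates 1 to 5. The highest F7 library was below the lowest control, replicate 3, with a log2 fold change of -1.70 (SE 0.16, adjusted p = 1.15e-05 by edgeR). Its relative Pprc1 fell by 0.55 on the log2 scale, on chromosome 19 among genes with a median of -0.51, and the GABP subunit Gabpb2 fell (-0.22, SE 0.08, adjusted p = 0.0437 by edgeR), a call that 12 of the 22 alternative settings ended.

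Another coactivator of the PGC-1 family, Ppargc1b, was too low to be tested by edgeR with the filter. It had 10, 9, 5 and 6 reads in F7 replicates 1 to 4 and 2, 2, 0, 0 and 1 reads in control replicates 1 to 5. Every F7 library was above every control in CPM, and Ppargc1b was called higher by edgeR without the filter on low counts (adjusted p = 8.2e-05) and by DESeq2 (adjusted p = 0.000415). Among 20 genes that maintain and transcribe mitochondrial DNA, Top1mt, its topoisomerase, rose (0.75) and the helicase Peo1 fell (-0.45), with a median of 0.01. The shares were 5% higher and 5% lower, against 17.4% and 17.9% of all tested genes.

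Genes used as markers of mitochondrial mass had a median of 0.20, near that of the nuclear members. Of 18 such genes 7 rose and 1 fell in F7 cells. The share called higher was 38.9%, against 17.4% of all tested genes, and the count was 3 without F7 replicate 1, 4 without F7 replicate 2 and 0 with F7 replicates 3 and 4 alone. The 3 with the smallest adjusted p among those that rose were the chaperone Hspa9 (0.70, SE 0.15, adjusted p = 0.00368 by edgeR), the import receptor Tomm70a (0.39, SE 0.10, adjusted p = 0.00865 by edgeR) and the outer membrane channel Vdac1 (0.32, SE 0.09, adjusted p = 0.0127 by edgeR). Tomm20, an import receptor on chromosome 8, fell (-0.50, with neighbours at -0.35). In bulk RNA, fewer cells with a transcript and less RNA per cell cannot be told apart.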

How the data were processed

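RNA was sequenced from 4 F7 and 5 control libraries, and groups come from the sample titles. Per the submitters' processing notes, reads on mm10 were counted with featureCounts and tested with DESeq2 1.18.1 in R 3.4.3; the sources used here do not give the aligner, annotation or strand use. Deposited by the authors were raw counts per gene, which every test used, a normalized signal, used only to check the counts, and a comparison giving log2 fold changes and p-values. The count and signal tables also hold 1 F7 column that belongs to no sample listed; it was left out here, and the authors' comparison may include it. No replicate pair agreed within sampling noise.

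The main test was edgeR 4.0.16 in R 4.3.3 (quasi-likelihood, TMM factors, filterByExpr, 14730 genes), with Benjamini-Hochberg adjustment over all tested genes and a threshold of 0.05. SE is |log2 fold change| / √F. Alternatives were other scalings and filters, DESeq2 1.42.0, limma voom 3.58.1, a replicate block, libraries left out, a length correction and an adjusted p under 0.01. The authors' deposited table was added after seeing the data. Positions and lengths (median of coding transcripts) come from GENCODE vM21, which lacks a single entry for Atp5o. Neighbours are the 50 nearest tested genes. The fit was tried on simulated counts with the same added spread for every gene and no shifts shared within a library. It therefore does not show how often calls in these libraries are wrong. Named in full were the 2 highest and 2 lowest called members of each complex, alternative subunit forms and the mitochondrial genes; Ndufa7, Atp5d and Ndufs8 were added after their values were seen. Members and lists were chosen with earlier results of these data known.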

Additional observations from a re-analysis of the deposited data

Results flagged for a closer look

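In 3 of 82 groups of libraries examined, 1 library stood far from the rest of its group, and chance alone gives about 1 group in 20. Uqcr10 stood at 38.3 CPM in control replicate 3, where the other controls ran from 32.04 to 32.8 CPM. The F7 libraries of this gene ran from 40.3 to 45.9 CPM. Cox8a stood at 97.1 CPM in control replicate 3, where the other controls ran from 80.3 to 82.1 CPM. mt-Atp8 stood at 141 CPM in control replicate 1, where the other controls ran from 68.7 to 83.6 CPM, and its F7 libraries ran from 57.7 to 179 CPM.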

How the results depend on the processing

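The median log2 fold change of the nuclear members stayed above 0 in every setting, between 0.07 and 0.24, and that of the mitochondrial members ran from -0.00 to 0.24. No mitochondrial member was called in any setting. The authors' deposited table, whose fit may include a further F7 library that matches no sample here, also calls none and gives 24 nuclear members higher and 1 lower. Counts of nuclear calls moved more. Leaving out 1 library at a time gave 7 to 40 higher and 0 to 2 lower. F7 replicates 1 and 2 alone gave 9 higher, and F7 replicates 3 and 4 alone 3 higher and 0 lower, with 2160 of all genes called in place of 5196. Without control replicates 3 and 5, the controls highest in the nuclear members, the counts were 43 higher and 0 lower. At an adjusted p under 0.01 they were 7 higher and 0 lower, with 2894 of all genes called. With the length trend removed, 14 were higher and 5 lower, and 59.4% of all called genes were higher. Other scalings, filters and tests gave 16 to 22 higher and 1 lower. With the replicate number as a block, 17 were higher and 0 lower. The numbers do not pair the samples: F7 and control libraries of the same number deviated with correlations of -0.05, 0.07, 0.21 and -0.05, and F7 replicate 3 alone was closest to its own number. No called gene changed sign. The cause of these shifts was not tested. F7 replicates 3 and 4, with 6041556 and 6590712 counts, limit the precision for low members.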

Other observations

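Genes that supply the electron transport chain moved in both directions. Of 12 tested genes of pyruvate and lactate supply, 5 rose and 2 fell in F7 cells, with a median log2 fold change of 0.11. The shares were 41.7% higher and 16.7% lower, against 17.4% and 17.9% of all tested genes, and 3 rose without F7 replicate 1 or 2 or control replicate 1. Ldha, the lactate dehydrogenase form that favours lactate production, measured 495, 478, 671 and 478 CPM in F7 replicates 1 to 4 and 248, 252, 379.7, 316 and 333 CPM in control replicates 1 to 5 (log2 fold change 0.79, SE 0.14, adjusted p = 0.00125 by edgeR). Ldhb, the form that favours lactate use, measured 45.3, 41.6, 50.8 and 48.1 CPM in F7 replicates 1 to 4 and 89.3, 66.8, 82.5, 73.9 and 74.7 CPM in control replicates 1 to 5 (log2 fold change -0.75, SE 0.09, adjusted p = 3.3e-05 by edgeR). In neither gene did the groups overlap. Among the kinases that switch off pyruvate dehydrogenase, Pdk1 (0.60, SE 0.17, adjusted p = 0.0182 by edgeR) and Pdk3 (0.47, SE 0.10, adjusted p = 0.00297 by edgeR) rose and Pdk2 fell (-0.99, SE 0.16, adjusted p = 0.000439 by edgeR). The remaining genes called higher were Pdha1 and Dlat, which encode subunits of pyruvate dehydrogenase itself. Of the 22 alternative settings, 6 ended the call of Pdha1 and 8 that of Dlat.

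Of 15 citric acid cycle genes 3 rose and 0 fell, with a median of 0.08. This is 20%, near the 17.4% of all tested genes called higher. The count was 1 without F7 replicate 1, 5 without control replicate 3 and 0 with F7 replicates 3 and 4 alone. They were Mdh2 (0.32, SE 0.09, adjusted p = 0.0125 by edgeR), Suclg2 (0.28, SE 0.08, adjusted p = 0.0163 by edgeR) and Fh1 (0.27, SE 0.09, adjusted p = 0.0301 by edgeR), and 2, 5 and 8 of the 22 alternative settings ended these calls of Mdh2, Suclg2 and Fh1. Of 7 tested genes that uncouple respiration or feed ubiquinone by other routes, Gpd2, the mitochondrial glycerol phosphate dehydrogenase, rose (0.30, SE 0.08, adjusted p = 0.0123 by edgeR). Prodh, the proline dehydrogenase, fell (-1.31, SE 0.22, adjusted p = 0.000568 by edgeR), as did Dhodh of pyrimidine synthesis (-0.46, SE 0.09, adjusted p = 0.0019 by edgeR), which lies on chromosome 8 among genes with a median of -0.38. For these 7 genes the shares were 14.3% higher and 28.6% lower, against 17.4% and 17.9% of all tested genes.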
